A study of Homo sapiens with 6 samples.

Results

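NME2 sites found in both conditions are the places in the genome where a peak before inducing NME2 and a peak after inducing NME2 overlapped. NME2 (NM23-H2) is a nucleoside diphosphate kinase, an enzyme that passes phosphate groups between nucleotides, and it is also known as a suppressor of metastasis. It binds DNA as well, and it is known as a regulator of the MYC promoter through a GC-rich nuclease-sensitive element. In chromatin immunoprecipitation followed by sequencing (ChIP-seq), DNA crosslinked to the protein is recovered with an antibody and sequenced, and a peak is a stretch of the genome where reads pile up above those of an IgG control.

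The cells were A549, a line derived from a human lung carcinoma. Before induction they were not transfected, and endogenous NME2 was recovered with the antibody anti-nm23-h2 (L-16). After induction they carried myc-tagged pcDNA3-NME2, and the antibody was anti-c-Myc monoclonal, Clone 9E10, against the Myc epitope. Whether it also recovered endogenous c-Myc was not tested. Cells of both conditions were taken at 48 h, those before induction from a plate left untreated. Each condition had 1 IgG library beside its 2 NME2 libraries. The IgG library before induction is labelled mouse and that after induction goat, although clone 9E10, used after induction, is a mouse antibody. The antibody and the induction changed together and cannot be told apart. Peaks were deposited as 1 list for a condition, which gives the position and a running number of each. Read counts and replicate values are not in the lists, so the depth behind each peak is unknown, no spread between cultures can be given, and no test was made. Intervals of shares printed here are Wilson 95% intervals, which cover only the counting error of peaks.

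Members were selected on the measured peak positions, as peaks with 1 bp or more in common with a peak from the opposite condition. They were 536 of the 2541 peaks before induction, which is 21.1% of that list, and 528 of the 11545 peaks after induction, which is 4.57%. These percentages result from the selection and serve as the background for the shares that follow. No partner was found for 2005 peaks before and 11017 after induction. Each of the 536 peaks before induction overlapped a single peak after induction. Of the 528 peaks after induction, 521 had 1 partner, 6 had 2 and 1 had 3.

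At the edge of the rule the overlaps were short. The shortest was 1 bp, between a 28 bp peak at chr20:5131485-5131512 before induction and a 28 bp peak at chr20:5131458-5131485 after induction (hg18, as all positions here, with the first base of a chromosome counted as 1). An overlap of at most 10 bp was found in 15 pairs and one of at most 28 bp in 322. Just outside the rule, 3 peaks before induction touched a peak after induction with no base in common, among them the 50 bp peak at chr7:77811866-77811915, and 3 more were separated from one by 1 bp.

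The longest overlaps were far larger. On chromosome 2 a 420 bp peak at chr2:67752603-67753022 before induction and a 499 bp peak at chr2:67752676-67753174 after induction shared 347 bp. On chromosome 9 the peaks chr9:131378316-131378650 and chr9:131378028-131378595 shared 280 bp. On chromosome 11 the peaks chr11:76107682-76107909 and chr11:76107690-76107913 shared 220 bp, with starts 8 bp and ends 4 bp apart. The median overlap over the 536 pairs was 28 bp (quartiles 28 and 35.2 bp), the length of the narrowest peaks in the lists.

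Peak widths gave the pairs their structure. Peaks of at most 29 bp are called narrow here, those of 30 to 100 bp middle and those over 100 bp broad. Both peaks were narrow in 105 pairs and both broad in 87 pairs. A narrow peak before induction met a broad peak after induction in 131 pairs, and a broad peak before induction met a narrow peak after induction in 95 pairs. The other 118 pairs held at least 1 peak of middle width. Narrow peaks before induction thus met a broad partner in 131 pairs and a narrow one in 105. For narrow peaks after induction these numbers were 95 and 105. Among peaks of 1 list only, 42.4% were narrow and 46.9% broad after induction, and 49.4 and 25% before induction.

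Within pairs, 274 peaks were wider after inducing NME2, 181 were narrower and 81 had the same width. Of the pairs whose width differed, 60.2% (interval 55.7 to 64.6%) were wider after induction. The median change was 1 bp (quartiles -22 and 170 bp). Where the overlap covered 50% or more of each peak, 77 pairs differed in width. Of these, 55.8% (44.7 to 66.4%) were wider after induction, and the median change at this setting was 0 bp. Among pairs broad in both conditions the median width was 172 bp before and 210 bp after induction, and 60 were wider and 15 narrower after induction. Among pairs narrow in both, 69 of 105 had equal widths. The largest gain was on chromosome 2, where a 43 bp peak at chr2:242455837-242455879 lay inside a 1330 bp peak at chr2:242455240-242456569. The next were a gain of 974 bp at chr10:50131727-50132746 and of 879 bp at chr19:35298686-35299592. The largest loss was at chr12:119204346-119204982, where a peak of 637 bp, number 7 of its list, was reduced to a 28 bp peak at chr12:119204920-119204947. Losses of 270 bp at chr17:46603747-46604044 and of 211 bp at chr18:74467033-74467291 followed. The rule favours wide peaks, because a wide peak meets a partner more easily, so these widths describe the chosen pairs.

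**Figure D1:**
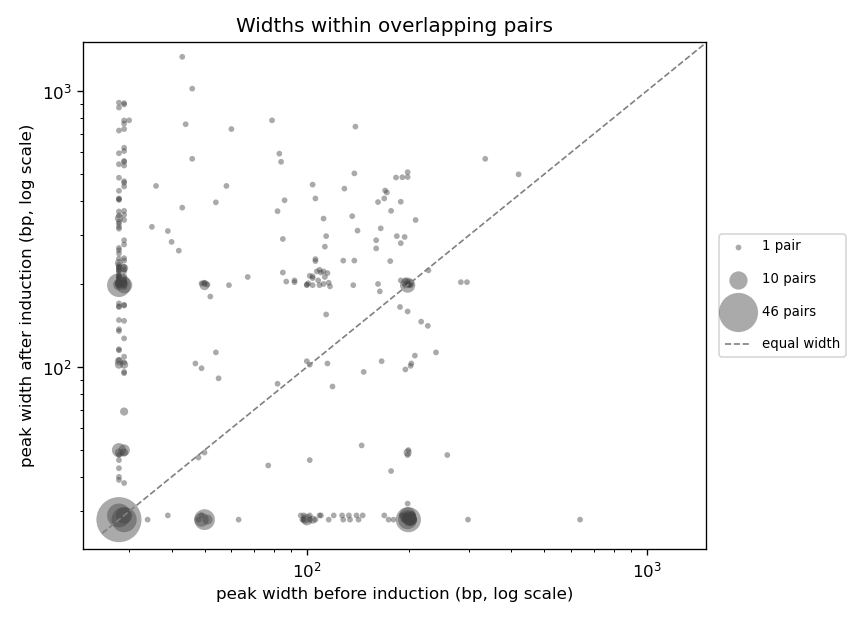
Peak width before induction (horizontal, bp, log scale) against peak width after induction (vertical, bp, log scale) for the 536 pairs. The area of a circle stands for the number of pairs with that combination of widths, and the dashed line marks equal width. The largest circle is the combination of 28 bp with 28 bp, which includes the 46 pairs with equal ends and further pairs with shifted ends.

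Set beside peaks of 1 list only, the members' median widths were not clearly apart. Before induction the median width was 42.5 bp for members (quartiles 28 and 165 bp) and 31 bp for the other peaks (28 and 101 bp). After induction it was 50 bp for members (28 and 203 bp) and 92 bp for the others (29 and 200 bp). The differences of 11.5 bp before and -42 bp after induction had intervals that spanned 0, from -2 to 19 bp and from -52 to 12 bp, which cover the spread of the members' median only. Broad peaks made up 36.2% of the members before induction and 25% of the other peaks, while after induction the shares were 47.2 and 46.9%. By class, 27.9% (24.7 to 31.3%) of the broad peaks before induction were found in both conditions, 13.8% (11.2 to 16.8%) of the middle ones and 20.8% (18.6 to 23.1%) of the narrow ones. After induction the peaks of 28 bp and 29 bp, which differ by a single base, were found in both conditions at different rates. The share was 7.21% (6.26 to 8.29%) of the 2497 peaks of 28 bp and 2.36% (1.83 to 3.05%) of the 2411 peaks of 29 bp. Before induction no such gap was seen, with 20.4% (17.8 to 23.3%) at 28 bp and 21.5% (17.9 to 25.8%) at 29 bp.

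The offsets between partners were not spread evenly but returned to a few values. Offsets are given as the position after induction minus that before induction, so a positive offset points to higher coordinates. Start and end were both identical in 59 pairs, the start alone or with the end in 87 and the end in 64. The median offset of the start was 0 bp (quartiles -85 and 35 bp), of the end 2 bp (-18.2 and 74.8 bp) and of the centre 0 bp (-18.5 and 36 bp). The median distance between centres was 25 bp regardless of direction, and the largest was 453.5 bp. The first identical pairs by running number were the 28 bp sites at chr9:3781434-3781461, chr4:7454499-7454526 and chr7:11999899-11999926. The last of these was number 42 before and number 4 after induction.

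Centres coincided to within 1 bp in 137 pairs. A further 34 pairs had the centre after induction 24 to 26 bp higher, and 55 had it 49 to 53 bp higher. At the mirrored distances towards lower coordinates there were 13 and 14 pairs. These windows were set after the offsets had been seen. Together the centre offsets near 0, 25 and 50 bp held 226 of the 536 pairs.

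**Figure D2:**
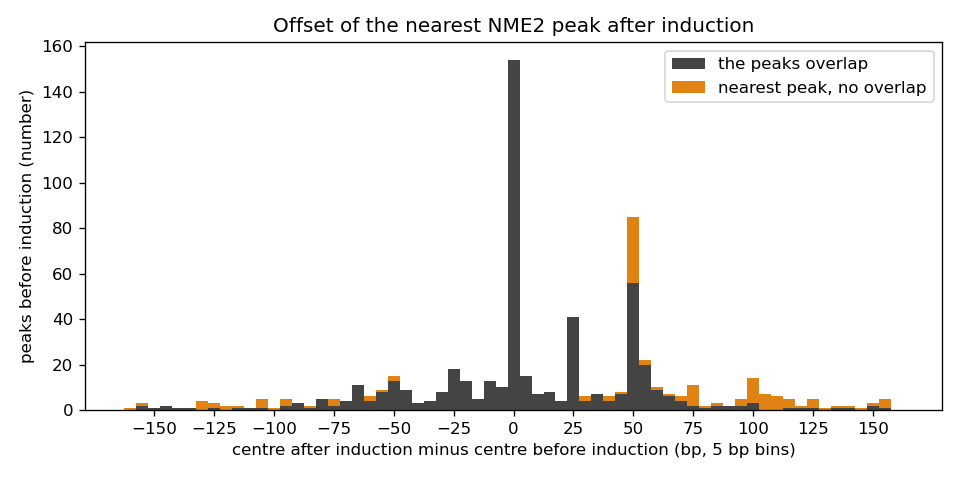
Number of peaks before induction (vertical) by the distance from their centre to that of the nearest peak after induction (horizontal, bp, bins of 5 bp), dark where the peaks overlap and orange where they do not. The counts stand in separate columns near 0, 25 and 50 bp, where the nearest centre within 300 bp was 49 to 53 bp higher for 84 peaks and 49 to 53 bp lower for 16.

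The same few arrangements of start and end lay behind these columns. The most frequent was a 28 bp peak in both conditions with equal ends, in 46 pairs. In 17 pairs a 199 bp peak before induction contained a 28 bp peak after induction that began 136 bp after its start and ended 35 bp before its end. The 199 bp peak chr12:40843997-40844195 with the 28 bp peak chr12:40844133-40844160 is an example, and the 199 bp peak chr6:19322996-19323194 with chr6:19323132-19323159 is another. In 13 pairs the order was turned, with a 28 bp peak before induction in the middle of a 198 bp peak after induction, 85 bp from either end, as at chr7:42673683-42673710 inside chr7:42673598-42673795. A 50 bp peak before induction with a 28 bp peak that ran 14 bp past its end occurred in 9 pairs, for example chr2:213030966-213031015 with chr2:213031002-213031029. In 6 pairs both peaks were 198 bp wide with equal ends, in 6 a 28 bp peak after induction lay in the middle of a 198 bp peak, and in 6 a 28 bp peak before induction met a 50 bp peak whose centre was 25 bp higher. These examples were chosen after their values were seen.

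**Figure D3:**
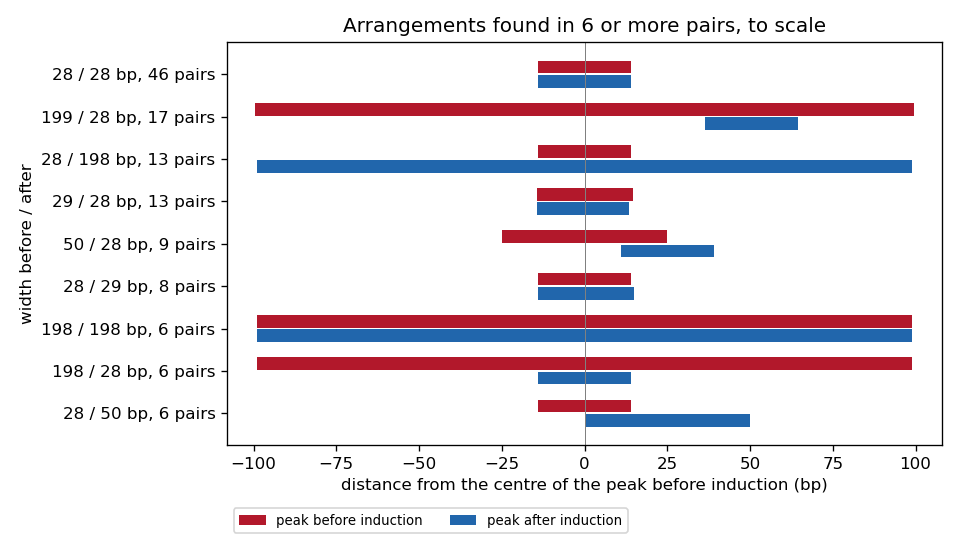
The 9 combinations of widths and offset found in 6 or more pairs, drawn to scale around the centre of the peak before induction (horizontal, bp), with the peak before induction in red, that after induction in blue and the number of pairs at the left. In the 199 / 28 bp, 50 / 28 bp and 28 / 50 bp arrangements the peak after induction is shifted to the right, and in the others the centres lie within 1 bp.

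The direction of the shift differed between kinds of pair. Where a broad peak before induction met a narrow one after induction, the narrow peak lay towards higher coordinates in 68 pairs and towards lower ones in 17. In this class 37 of 95 pairs had an end offset of exactly -35 bp, and 51 of 95 narrow centres fell between 60 and 80% of the width of the broad peak, counted from its start. Where a narrow peak before induction met a broad one after induction, there was no such side, with 52 pairs towards higher and 64 towards lower coordinates, and 42 of 131 narrow centres lay between 40 and 60%. Where a middle peak before induction met a narrow one after induction, the narrow peak lay towards higher coordinates in 30 pairs and lower ones in 7. In the reverse order, narrow before and middle after induction, the peak after induction again lay higher, in 18 pairs against 6. With a middle peak before and a broad one after induction, the peak after induction lay higher in 15 pairs and lower in 24. With a broad peak before and a middle one after induction, the peak after induction lay higher in 4 pairs and lower in 8. Over all pairs with unequal centres, 54.9% (50.3 to 59.4%) were shifted to higher coordinates. With the windows around 0, 25 and 50 bp left out on both sides, 137 pairs were shifted up and 146 down. This is 48.4% (42.6 to 54.2%), with an interval that overlaps that of all pairs. The windows were set where upward offsets had been seen to pile up, so leaving them out lowers the share by construction. It therefore cannot tell whether the other pairs lack a side.

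Peaks that missed the overlap continued this series of offsets. A peak before induction without partner had the nearest centre after induction within 300 bp in 158 cases. Of these, 113 lay towards higher and 45 towards lower coordinates, a share of 71.5% (64 to 78%) for the higher side. The offset was 49 to 53 bp in 29 cases, 74 to 76 bp in 9 and 99 to 101 bp in 9, against 2, 3 and 1 at the mirrored distances. Both peaks were narrow in 28 of the 29 cases near 50 bp. Peaks of 28 or 29 bp cannot overlap at a centre distance of 50 bp, so the rule of 1 bp took in such neighbours only when 1 of the peaks was wider and left them out when both were narrow.

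Peaks just outside the rule were crowded near the sites of the other list. Of the 2005 peaks before induction without partner, 132 were less than 100 bp away from a peak after induction, 44 between 100 and 300 bp and 40 between 300 and 1000 bp. Per 100 bp of distance these are 132, 22 and 5.71 peaks. From 1000 to 2000 bp the number was 2.7 per 100 bp, from 2000 to 5000 bp it was 1.2 and from 5000 to 10000 bp 1.44. The crowding thus fell most steeply within 1000 bp and levelled off beyond 2000 bp. Of the 2005 peaks, 1654 were 10000 bp or more from any peak after induction.

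Members were unevenly spread over the running numbers. What the running number ranks is not stated, and some numbers are absent. Before induction the 2541 peaks carry numbers up to 3191 with 650 absent, the first of them 1106, and after induction the 11545 peaks carry numbers up to 16135 with 4590 absent, the first of them 1152. Bins of 10% hold nearly equal numbers of listed peaks. After inducing NME2 the members lay early in the list, at a median running number of 945.5, against 6509 for peaks of that list only. In the first 10% of the list, numbers 1 to 1199, 303 of 1155 peaks were found in both conditions, which is 26.2% (23.8 to 28.8%). In the next 10% the share was 4.51% (3.45 to 5.86%), and it fell to 0.953% (0.533 to 1.7%) in the last. The first 10% thus held 57.4% of all members of the list. Up to the first absent number the share was 26.3% (23.9 to 28.9%), and after it 2.16% (1.9 to 2.46%). Among the first 100 numbers 54 were found in both conditions, and among the first 500 there were 209. Within the first 10% the share was similar in each width class, at 28.5% (25.1 to 32.1%) for narrow, 22% (15.8 to 29.8%) for middle and 24.2% (20.3 to 28.6%) for broad peaks.

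Before induction the members lay at both ends of the list. The share found in both conditions was 44.3% (38.3 to 50.5%) in the first 10%, lowest at 7.87% (5.15 to 11.8%) for numbers 1429 to 1722, and 29.9% (24.6 to 35.8%) and 28.3% (23.2 to 34.2%) in the last pair of bins. Of the first 100 numbers 54 had a partner here too. Split at the first absent number of this list, the share was 25.2% (22.7 to 27.8%) before it and 18% (16.1 to 20%) after it. In the first 10% of the list 58.8% (42.2 to 73.6%) of the middle and 54.5% (41.5 to 67%) of the broad peaks were members, and 38% (30.9 to 45.5%) of the narrow ones.

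**Figure D4:**
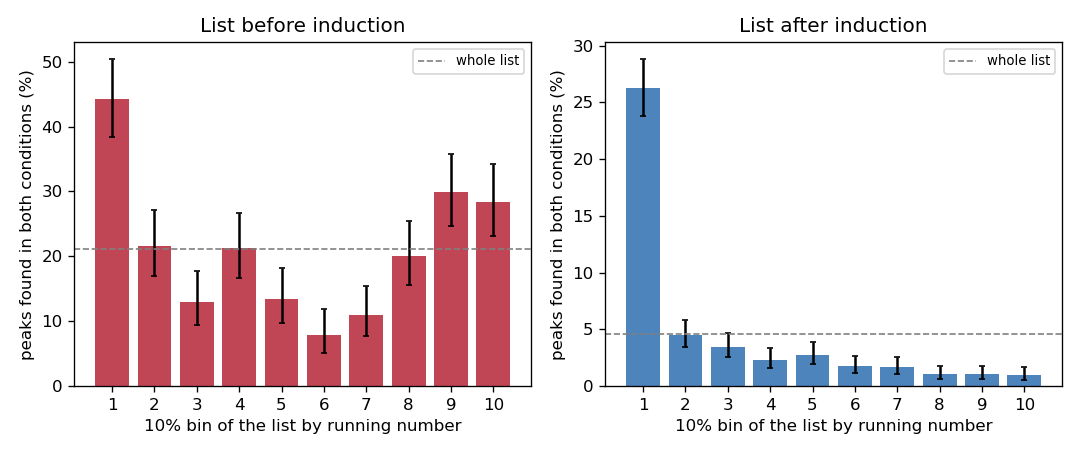
Share of peaks found in both conditions (vertical, %) by 10% bin of each list in order of the running number (horizontal), with Wilson 95% intervals as bars and the share of the whole list as a dashed line. After induction the first bin stands at 26.2% and the others at 4.51% or less, and before induction the share is high at both ends of the list.

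Members early in the list before induction had early partners. Of the 187 members in its first 25%, 183 had a partner in the first 25% of the list after induction. Over all 536 pairs, 387 partners lay in that first 25% and 28 in the last 25%. Of the 177 members in the last 25% before induction, 16 had a partner in the last 25% after induction and 89 had one in the first. Spearman's rho between the running numbers of partners was 0.68 over 536 pairs, 0.68 over the 95 pairs broad before and narrow after induction, 0.47 over the 105 narrow in both, 0.46 over the 131 narrow before and broad after induction, and 0.36 over the 87 broad in both. Over the 226 pairs with centre offsets near 0, 25 or 50 bp it was 0.29. It is given as a description, since the pairs come from 1 pair of lists and were chosen by overlap.

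The kind of offset went with the place in the list. The 226 pairs with centres near 0, 25 or 50 bp had a median running number of 353.5 before and 289 after induction, and 90.3% of their peaks after induction were in the first 10% of that list. The other 310 pairs had medians of 2277.5 and 2593, with 33.2% in the first 10%. Among these 310, the 13 pairs with centres 24 to 26 bp lower were early too, with medians of 340 and 239 and 84.6% in the first 10%. The 14 pairs with centres 49 to 53 bp lower had medians of 2301.5 and 1379.5, with 50% in the first 10%. For pairs broad in both conditions the medians were 2259 and 3176, and for pairs narrow in both 490 and 326. Pairs of a middle peak before and a narrow peak after induction had medians of 491 and 210. Within the 226 pairs the medians were 332 and 261 near 0 bp, 315 and 224 near 25 bp and 499 and 460 near 50 bp.

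Most members had no other member nearby. The median distance from a member to the next member, taken in the list before induction, was 1831 kb (quartiles 496 and 3890 kb). No background was computed for this distance between members. The nearest peak of any kind in the same list lay at a median of 363 kb before and 62.1 kb after induction. For the peaks of 1 list only these medians were 324 and 76.5 kb. The 536 members lay in 465 bins of 1 Mb, of which 405 held a single member and 8 held 3 or more. The 3 fullest held 4 members each. On chromosome 3 they lay within 0.917 kb at chr3:199384329-199385245, and on chromosome 18 within 0.56 kb at chr18:4-563. On chromosome 12 they were spread over 674 kb at chr12:129105363-129779342.

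Several peaks before induction met the same peak after induction at 7 sites. At the start of chromosome 18 the peaks chr18:4-109, chr18:244-271 and chr18:315-483 overlapped 1 peak of 408 bp at chr18:1-408. On chromosome 12 a 30 bp and a 79 bp peak both lay within 1 peak of 783 bp at chr12:129778633-129779415. On chromosome 13 the 728 bp peak chr13:23828130-23828857 took in a 29 bp peak and reached 3 bp into a 60 bp peak. The remaining sites were the peaks after induction at chr2:218337285-218337386, chr3:199384193-199384560, chr5:2722197-2722750 and chr20:62388906-62389246. No peak before induction was matched to several peaks after induction.

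Neighbours in the same list were compared with those of peaks of 1 list only. After induction 8.9% (6.76 to 11.6%) of members had another peak of that list within 1 kb, against 4.79% (4.41 to 5.21%) of the other peaks. Within 10 kb the shares were 17.4% (14.4 to 20.9%) and 13.2% (12.5 to 13.8%). Before induction the order was the opposite, with 5.97% (4.26 to 8.31%) of members and 10.2% (8.97 to 11.6%) of the other peaks within 1 kb. This order rested on 8 bins of 1 Mb that held more than 10 peaks before induction each, 184 peaks in all with 2 members. Without these bins the shares within 1 kb were 5.99% (4.28 to 8.34%) of members and 3.46% (2.71 to 4.4%) of the others.

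Some members lay at the outermost peaks of chromosomes. The distance was taken from the first or last peak of either list, since chromosome lengths of hg18 were not used here. Within 1000 bp of it, 19 of 38 peaks before induction were members, 50% (34.8 to 65.2%), and 16 of 37 after induction, 43.2% (28.7 to 59.1%). More than 5 Mb inside, the shares were 20.2% (18.5 to 21.9%) and 4.21% (3.84 to 4.61%). These shares are a description and not a comparison of like with like, since a peak in the window is itself the outermost peak or lies close to one, often of the opposite list, and closeness to the opposite list is what the members were chosen by. Including partners that reach beyond the window there were 20 such pairs on 12 chromosomes. They were short before and long after induction, with median widths of 29 and 354.5 bp, and 17 of the 20 were wider after induction. Each pair was counted, so some peaks after induction entered more than once. The 408 bp peak of chromosome 18 entered 3 times. The 368 bp peak of chromosome 3 and the 341 bp peak of chromosome 20 entered 2 times each. At the start of chromosome 1 a 28 bp peak at chr1:305-332 lay inside a 543 bp peak at chr1:1-543. At the end of chromosome 10 a 29 bp peak lay inside the 451 bp peak chr10:135374357-135374807. On chromosome X the order was turned, with 116 bp at chrX:1-116 before and 28 bp at chrX:45-72 after induction. Their median running number was 2649 before and 1067 after induction, late in the first list and early in the second.

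The shares of members found on single chromosomes differed from those of peaks of 1 list only by a few percentage points at most. Before induction the shares of the members and of the other peaks that fell on a chromosome differed by a median of 0.951 percentage points, and the intervals of the shares overlapped for each of the 24 chromosomes. Read as the share of a chromosome's peaks found in both conditions, the interval did not hold the 21.1% of the whole list for 5 chromosomes. It lay below on chromosomes 5, 16 and Y and above on chromosomes 11 and 20. Without the dense bins the share of the whole list was 22.7%, and the interval did not hold that share for 2 chromosomes, 5 and 11. The largest excess of members was on chromosome 11 (6.16% of members and 3.69% of the others), chromosome 2 (9.7 and 7.88%) and chromosome 20 (3.54 and 1.95%). The largest deficit was on chromosome 16 (2.61 and 5.19%), chromosome 5 (3.92 and 6.38%) and chromosome 4 (5.04 and 7.38%). Without the 8 dense bins described above, the deficits of chromosomes 16 (2.62 and 3.46%) and 4 (4.87 and 5.6%) were smaller, and the largest were on chromosomes 5 (3.93 and 7.02%) and 1 (5.81 and 8.06%). The largest excesses were then on chromosomes 11 (6.18 and 4.06%), 20 (3.56 and 2.14%) and 12 (5.43 and 4.22%), with chromosome 2 (9.74 and 8.67%) behind them. Chromosome 16 had 14 members among 118 peaks, 11.9% (7.2 to 18.9%), and without the dense bins 18.2% (11.2 to 28.2%) of its peaks were members.

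After induction the median difference was 0.709 percentage points. The intervals were apart for 1 chromosome, chromosome 5, with 3.79% (2.47 to 5.78%) of members and 6.28% (5.84 to 6.75%) of the other peaks. With clusters of peaks within 100 kb counted once they overlapped, at 3.94% (2.56 to 6%) and 6.4% (5.85 to 6.98%). Chromosomes X (3.22 and 4.91%) and 1 (5.87 and 7.45%) had the next largest deficits. Chromosomes 11 (6.25 and 4.97%), 20 (3.41 and 2.37%) and 2 (9.66 and 8.63%) again had the largest excess. Since partners lie on the same chromosome, the members' shares in the 2 lists repeat each other, and only the peaks of 1 list differ between these comparisons.

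**Figure D5:**
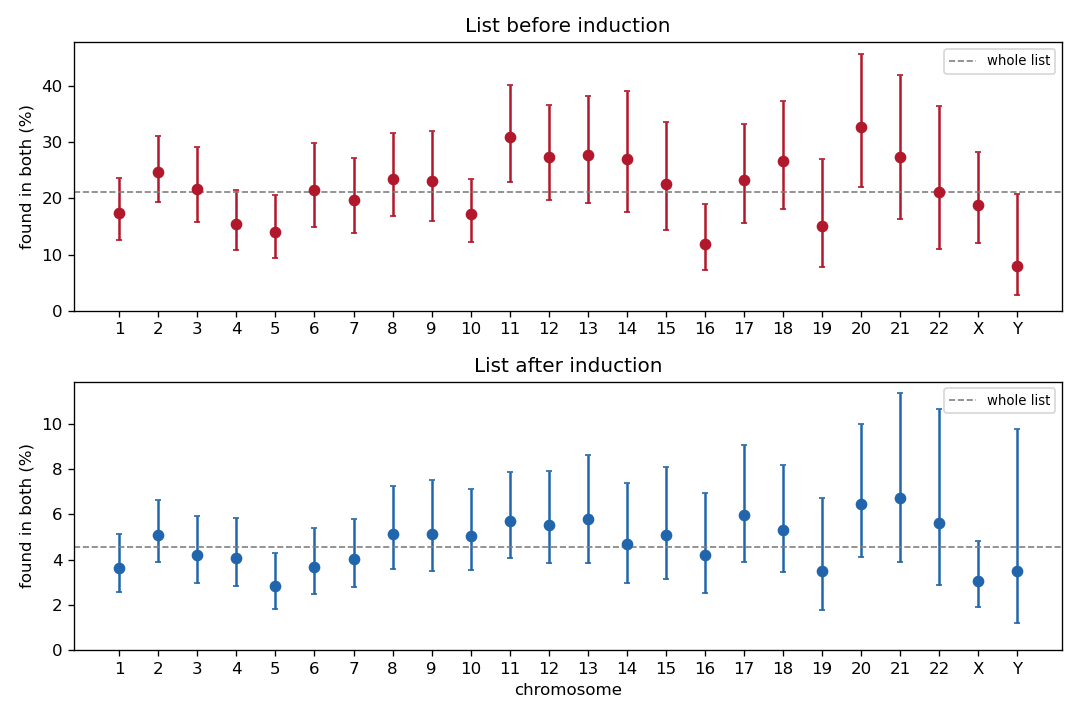
Share of the peaks of each chromosome (horizontal) that were found in both conditions (vertical, %), before induction above and after induction below, with Wilson 95% intervals and the share of the whole list as a dashed line. Before induction the share runs from 7.89% on chromosome Y to 32.8% on chromosome 20, and after induction from 2.81% on chromosome 5 to 6.7% on chromosome 21. Without the dense bins chromosome Y stands at 14.3% before induction and chromosome 5 is lowest at 14.1%. After induction chromosome Y is then lowest at 2.35%.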

How the data were processed

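The authors clipped reads, aligned them with MAQ to hg18, found regions enriched over IgG with CisGenome, then refined peak boundaries and filtered out peaks seen on a single strand. The 1 list deposited for a condition numbers the peaks and gives their coordinates, with no measured signal. How replicates were combined is not given in the sources used here. Each list was assigned to its condition by the name the authors gave it.

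Starts were read as counted from 0, with width as end minus start, and positions are printed counting from 1. Overlaps and offsets were computed with python 3.11.15, pandas 2.3.3 and scipy 1.17.1, checked with bedtools 2.31.1 (536 and 528 peaks) and tested on simulated data. Bins of 10 and 25% follow the running number, and they and the offset windows were set after seeing the data. Where a peak had several partners, each pair was counted.

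The members and the rules for naming sites were chosen with earlier results of these data known: the longest overlaps, largest width changes, first identical pairs, sites with several partners, outermost peaks, fullest 1 Mb bins and chromosomes with the largest differences. No hg18 sequence or annotation was used, so sequences and genes at the sites were not analysed here.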

Additional observations from a re-analysis of the deposited data

How the results depend on the processing

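No paired analysis was possible because the lists, 1 for a condition, carry no replicate values, and leaving out a replicate was not possible either. The 16 results were recomputed in 64 alternative ways, of which 10 were chosen after seeing the data. Of these, 49 stayed within the interval of the result, within 1.5 times a count, or on the same side where the measure differed, and 15 did not. The cause of these changes was not tested. Among the 49, those that kept only the longest overlap of each peak before induction could not differ, because each such peak had a single partner.

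The number of members before induction was 154 where the overlap had to cover 50% or more of each peak, 690 where centres within 300 bp counted and 752 where gaps up to 1000 bp did. In pairs broad in both conditions the median start offset was -23 bp and the median centre offset -0.5 bp. The share of pairs shifted to higher coordinates was 42.9% among pairs narrow in both and 42.9% among pairs broad in both, 46.3% with a 50% overlap of both peaks, 59.6% for nearest centres within 300 bp and 48.4% outside the offset windows on both sides, against 54.9% for all. Without the dense bins the share of members with a neighbour within 10 kb before induction was 2.84 percentage points above that of other peaks, in place of 5.48 points below (a difference of -5.48). The number of chromosomes with intervals apart was 1 in place of 0 before induction with clusters within 100 kb counted once (chromosome 5) and 1 with autosomes only (chromosome 16), and 0 in place of 1 after induction with such clusters. The median percentile of the running number was 53.3 for broad members before induction, against 42.2 for all, and after induction 3.27 for narrow and 17.7 for broad members, against 8.19 for all.

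The depth behind each peak is unknown, so no limit of detection can be given for a site missing from 1 list.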
